A study of Arabidopsis thaliana with 6 samples.

Results

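The 10 genes described here encode 9 cellulose synthase catalytic subunits (CESA) and COBRA (COB), taken by gene ID from the 21125 genes with values in root tips of Arabidopsis thaliana. They comprised the primary wall subunits CESA1, CESA2, CESA3, CESA5, CESA6 and CESA9, the secondary wall subunits CESA4, CESA7 and CESA8, and COB, and all 10 were listed. RNA had been sequenced from the last 2 mm or so of the root of 6-day-old plants carrying the scl28-3 mutation (3 libraries) and of wild-type plants (3 libraries). Both genotypes had been grown in continuous light at 21 °C on Murashige and Skoog medium, and each biological replicate was a pool of about 300 tips. The kind of lesion in scl28-3, a mutant of the GRAS-family transcription factor gene SCL28, was not given in the sources used here. In such pooled tissue, fewer cells of a type and less RNA per cell cannot be told apart.

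Cellulose is spun at the plasma membrane by rosette-shaped complexes of CESA proteins, which move along cortical microtubules and leave glucan chains behind them. In the primary wall of growing cells the complex combines CESA1, CESA3 and a member of the CESA6-related group, in which CESA2, CESA5, CESA6 and CESA9 can partly stand in for one another. CESA4, CESA7 and CESA8 form a separate complex in cells that thicken their walls, such as xylem vessels, while COB is a membrane-anchored extracellular protein needed for oriented cell expansion in the root.

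The CESA genes share the catalytic QxxRW signature, and the codons for it are shown to let the members be compared at the base level over residues they have in common. Each run is 33 bases of coding sequence from the TAIR10.1 genome, 5′ to 3′ on the coding strand, with the 5 signature codons in capitals.
CESA1: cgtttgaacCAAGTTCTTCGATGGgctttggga
CESA3: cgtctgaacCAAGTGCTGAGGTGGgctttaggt
CESA6: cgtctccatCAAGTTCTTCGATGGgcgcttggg
CESA5: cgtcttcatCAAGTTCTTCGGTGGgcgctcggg
CESA2: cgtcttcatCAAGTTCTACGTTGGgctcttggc
CESA9: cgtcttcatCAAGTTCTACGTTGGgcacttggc
CESA4: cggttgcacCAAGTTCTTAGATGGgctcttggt
CESA7: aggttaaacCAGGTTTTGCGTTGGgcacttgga
CESA8: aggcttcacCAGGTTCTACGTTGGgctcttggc
The signature codons translate to the same residues in all 9 genes, and they differ from those of CESA1 at 0 to 4 of 15 bases. CESA6 has the same 15 bases as CESA1, and CESA3 and CESA7 differ from it at 4. The stretch lies within the next-to-last exon of the longest annotated transcript in each gene: in CESA1 at chr4:15641862-15641894 on the minus strand in exon 13 of 14, in CESA6 at chr5:25885376-25885408 on the plus strand in exon 12 of 13, and in CESA7 at chr5:5737707-5737739 on the minus strand in exon 11 of 12.

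Over the whole coding sequence, the CESA6-related genes were closer to each other than to the rest. Their 6 pairs matched at 77.9% to 86.0% of aligned bases, against 68.0% to 71.9% for the other 30 pairs of CESA genes. The closest pairs were CESA5 with CESA6 at 86.0% and CESA2 with CESA9 at 84.7%. Few stretches were identical between paralogs. Of all 50-base words in the longest transcript, CESA5 and CESA6 shared 1 with each other, and CESA1, CESA2, CESA9 and COB shared none with another annotated gene. CESA8 was the exception in the set, with 14.1% of its words also found in another gene. The gene sharing most of these words was MYB98 on the opposite strand, which overlaps CESA8 by 481 bases. A long noncoding RNA gene on the opposite strand, AT4G06845, overlaps CESA8 by 81 bases. Neither of these genes has values here. Whether counting used the strand was not given in the sources used here, so CESA8 values are less certain than the others. Overlaps of CESA1, CESA3, CESA4 and CESA7 with neighbours spanned 17 to 74 bases.

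The values were read counts scaled to the library total (CPM), as deposited. Recovered depth was 13997209 to 16781226 reads in scl28-3 libraries and 10400347 to 11573324 reads in wild-type libraries, and 3 reads corresponded to between 0.179 and 0.288 CPM. SCL28 itself was lower in the mutant libraries, at 15.4 ± 2.08 CPM in scl28-3 and 43.2 ± 1.17 CPM in wild type (SD, n = 3 each), with a log2 difference of -1.48 ± 0.12 (SE) and a limma adjusted p = 0.0022. On the first principal component, which held 44.3% of the variance, wild-type library 1 stood apart at -35.6, with the other 5 libraries between -9.44 and 19.5. Root markers were present and leaf markers were low: 4 meristem genes summed to 98.3 to 104 CPM in scl28-3 and 88.7 to 121 CPM in wild type, and 4 leaf genes to 8.15 to 17.7 CPM in scl28-3 and 9.38 to 13.9 CPM in wild type.

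Neither COB nor any tested cellulose synthase gene was called between the genotypes. Of the 10 genes, 9 passed the filter on low counts and entered a limma fit of all 17879 tested genes, in which a gene was called at a Benjamini-Hochberg adjusted p under 0.05. None of the 9 was called, where 0.0727% of all tested genes were, and edgeR's quasi-likelihood test on recovered reads (0.0783% called) and the limma fit with a replicate block (0.358% called) also called 0 of them. At an unadjusted p under 0.05 the limma fit held 1 of the 9, CESA2, where 4.37% of all tested genes passed that mark. The differences of 6 genes were above 0 and of 3 below, with a median of 0.03 (log2), against a median of 0.01 over all tested genes. With 3 libraries a genotype, the 95% intervals of the differences reached between 0.13 and 0.65 above 0 and down to -0.45 (log2).

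**Figure D1:**
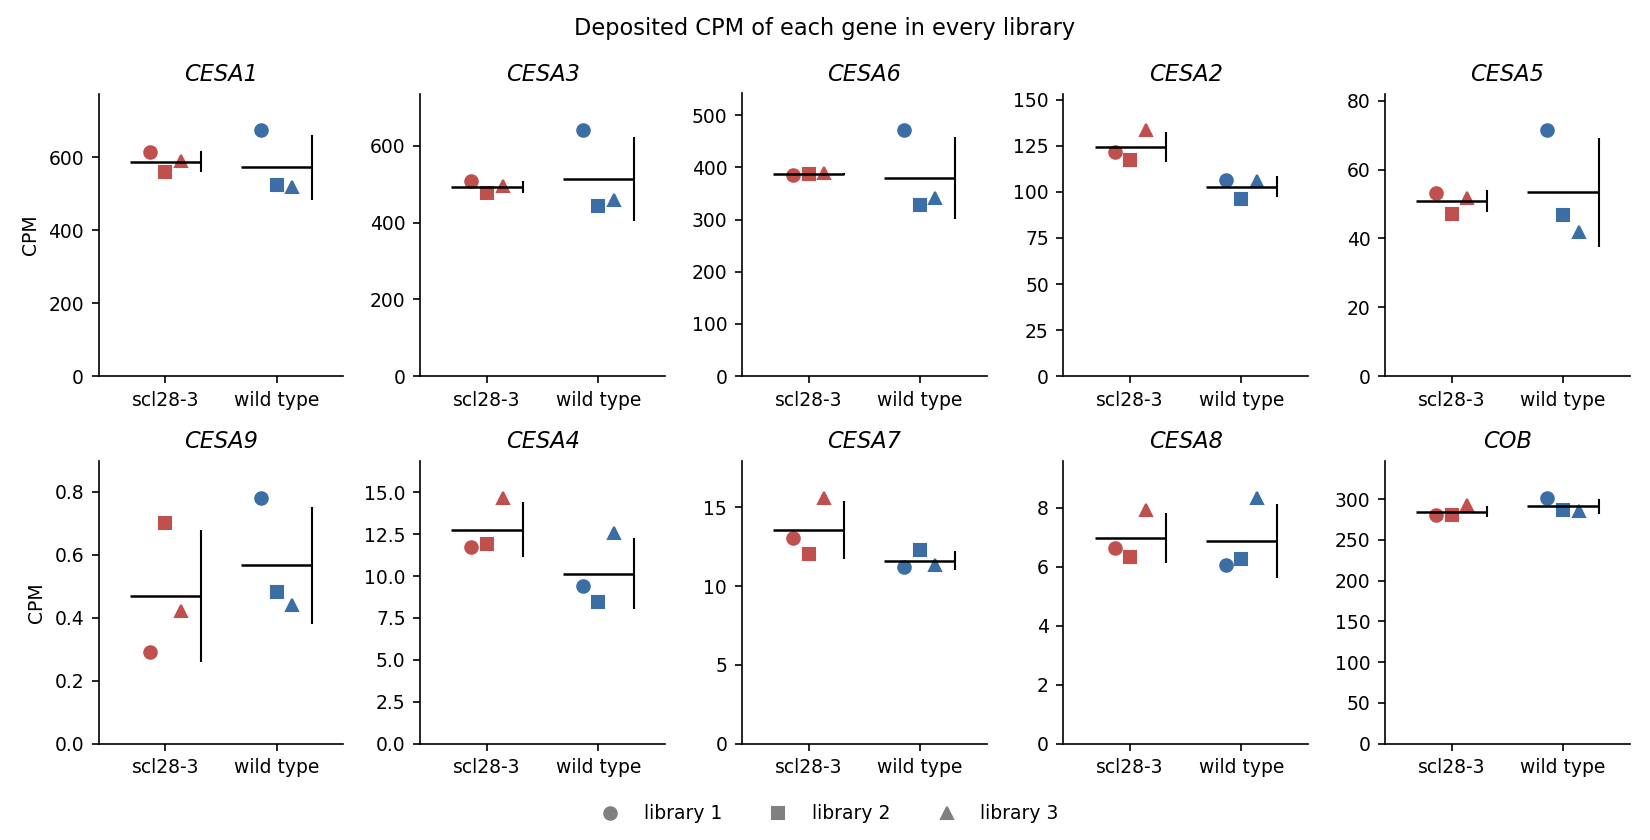
Deposited CPM (vertical axis, from 0 in each panel) of the 10 genes in the 3 scl28-3 and 3 wild-type libraries. Points are libraries, with the library number as the marker shape, horizontal lines are genotype means and vertical lines are 1 SD. In the CESA1, CESA3, CESA5 and CESA6 panels wild-type library 1 is the highest point, and in the CESA2 panel the 3 scl28-3 points lie above the 3 wild-type points.

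CESA1 and CESA3, the obligate subunits of the primary wall complex, were the most abundant synthase genes. CESA1 (AT4G32410, chr4:15640490-15646844, minus strand) was at 615, 560.4 and 588 CPM in scl28-3 libraries 1 to 3 and at 673, 523 and 519 CPM in wild-type libraries 1 to 3. The scl28-3 values lay between wild-type library 1 and the other two wild-type libraries. The log2 difference was 0.03 ± 0.12 (SE, 95% interval -0.23 to 0.29, limma adjusted p = 0.998). CESA3 (AT5G05170, chr5:1530132-1535558, minus strand; named CEV1 in the reference) was at 508, 476 and 497 CPM in scl28-3 and at 640.4, 443 and 459 CPM in wild type, so again wild-type library 1 was the highest of the 6. Its log2 difference was -0.06 ± 0.14 (95% interval -0.36 to 0.25, limma adjusted p = 0.998). Without wild-type library 1 the log2 differences were 0.15 for CESA1 and 0.11 for CESA3, which turned the direction of CESA3, and neither was called.

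CESA6, the main member of the CESA6-related group in growing roots and hypocotyls, was likewise highest in wild-type library 1. CESA6 (AT5G64740, chr5:25881033-25886728, plus strand) was at 386, 387 and 389 CPM in scl28-3 and at 471, 329 and 342 CPM in wild type. The scl28-3 libraries lay close together, with an SD of 1.98 CPM, while the wild-type libraries fell on both sides of them, with an SD of 78.7 CPM. The log2 difference was 0.03 ± 0.13 (95% interval -0.27 to 0.32, limma adjusted p = 0.998). Without wild-type library 1 it was 0.18, with a limma unadjusted p = 0.0361 and adjusted p = 0.485, so it was not called either. In that fit 1768 of 18184 tested genes had an unadjusted p under 0.05. CESA5 (AT5G09870, chr5:3072870-3078416, plus strand), also known for cellulose in seed coat mucilage, was at 53.3, 47.1 and 51.8 CPM in scl28-3 and at 71.4, 46.9 and 41.8 CPM in wild type. Its values overlapped between genotypes and its difference had the widest interval of the tested primary wall genes, at a log2 difference of -0.05 ± 0.18 (95% interval -0.45 to 0.34, limma adjusted p = 0.998). Without wild-type library 1 that difference was 0.17.

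CESA2 was the only one of the 9 tested genes whose genotypes did not overlap. CESA2 (AT4G39350, chr4:18296388-18302192, plus strand), another CESA6-related subunit, was at 122, 118 and 133 CPM in scl28-3 and at 107, 96.2 and 106 CPM in wild type. Each scl28-3 library was above each wild-type library, by a smallest gap of 118 against 107 CPM. Such a pattern held for 6.19% of all tested genes in this direction, 4.22% in the other and 10.4% in either, so 1 of 9 is a share near the background. The means were 124 ± 8.21 CPM in scl28-3 and 103 ± 5.75 CPM in wild type (SD, n = 3 each). The log2 difference was 0.25 ± 0.08 (SE, 95% interval 0.06 to 0.44), with an unadjusted p = 0.0145 and a limma adjusted p = 0.995. It was above 0 whichever library was left out, from 0.20 to 0.29, and the lowest adjusted p over all alternatives was 0.201, in the fit with a replicate block.

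CESA9, best known from seed coats, was barely detected. CESA9 (AT2G21770, chr2:9284391-9289744, plus strand) had 4, 10 and 7 reads in scl28-3 libraries and 9, 5 and 5 reads in wild-type libraries. In CPM these were 0.29, 0.70 and 0.42 in scl28-3 and 0.78, 0.48 and 0.44 in wild type. The genotypes overlapped, the gene did not pass the filter, and it was not tested for a difference in the main fit.

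The secondary wall genes were detected at low levels in all 6 libraries. CESA4 (AT5G44030, chr5:17714390-17719723, plus strand) was at 11.7, 11.9 and 14.7 CPM in scl28-3 and at 9.42, 8.46 and 12.6 CPM in wild type. Wild-type library 3 lay among the scl28-3 libraries and the other two lay below them. Its log2 difference, 0.31 ± 0.15 (95% interval -0.03 to 0.65, limma adjusted p = 0.995), was the highest of the 9 with all 6 libraries, though not without wild-type library 1 or 2, and did not pass at an unadjusted p = 0.0707. It was 0.21 without scl28-3 library 3 or wild-type library 2 and 0.45 without wild-type library 3, where limma gave an unadjusted p = 0.0126 and an adjusted p = 0.694. With the replicate block the limma unadjusted p of CESA4 was 0.0168 and the adjusted p was 0.330. In that fit 1966 of 17879 tested genes had an unadjusted p under 0.05.

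CESA7 and CESA8, the other two subunits of that complex, were likewise not called. CESA7 (AT5G17420, chr5:5736630-5741500, minus strand; IRX3 in the reference, for the irregular xylem of its mutants) was at 13.1, 12.0 and 15.6 CPM in scl28-3 and at 11.2, 12.3 and 11.3 CPM in wild type. Only scl28-3 library 2 overlapped the wild-type range. The log2 difference was 0.19 ± 0.13 (95% interval -0.09 to 0.47, limma adjusted p = 0.995), and 0.09 without scl28-3 library 3. CESA8 (AT4G18780, chr4:10312624-10316886, minus strand; IRX1 in the reference) was at 6.64, 6.33 and 7.93 CPM in scl28-3 and at 6.05, 6.25 and 8.34 CPM in wild type. In CESA8, library 3 was the highest in each genotype and the log2 difference was 0.01 ± 0.15 (95% interval -0.34 to 0.35, adjusted p = 1.00 in limma).

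The genes were also searched for the tracheary-element-regulating cis-element (TERE), an 11-base element with 2 free positions known from genes of xylem vessels, on both strands upstream of the annotated gene start. In 300 bases it was found for CESA4 alone among the 10 genes, and 0.430% of 27443 protein-coding genes hold it in a window of that length. In 1000 bases CESA4 was again the one member with a match, where 1.45% of genes hold it. The 30 bases around the match, at chr5:17714361-17714390 in TAIR10.1 on the plus strand, are shown with the match in capitals because CESA4 was the one member with a match.
CESA4 upstream: acataataaCTTGAAAGCTActctaagtta
The match begins 20 bases before the CESA4 start, in a stretch where the annotation also places the end of AT5G44020 on the same strand. It describes the letters in this window only.

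COB was the steadiest of the expressed genes across libraries. COB (AT5G60920, chr5:24511152-24514338, minus strand) was at 280.7, 280.7 and 293 CPM in scl28-3 and at 302, 287 and 285 CPM in wild type. The ranges overlapped, and wild-type library 1 was the highest of the 6. Means were 285 ± 6.91 CPM in scl28-3 and 291 ± 9.01 CPM in wild type (SD, n = 3 each), with a log2 difference of -0.05 ± 0.08 (95% interval -0.23 to 0.13, limma adjusted p = 0.996). Leaving out a library gave log2 differences of -0.08 to -0.03.

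**Figure D2:**
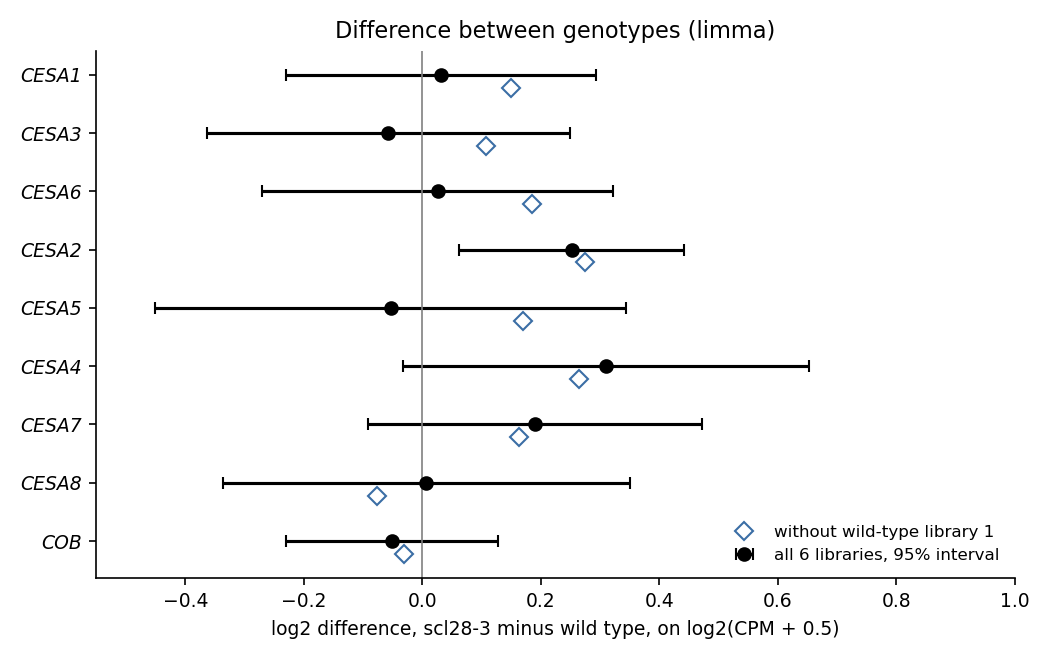
Log2 difference between genotypes (horizontal axis, scl28-3 minus wild type, on log2(CPM + 0.5)) for the 9 tested genes. Filled points with bars are the limma estimates and their 95% intervals over 6 libraries, and open diamonds are the estimates without wild-type library 1. The CESA2 interval, 0.06 to 0.44, lies above 0, no gene was called after adjustment, and CESA1, CESA3, CESA5 and CESA6 move to the right without wild-type library 1.

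Levels were compared between genes after division by the length of their annotated exons, in CPM per kb. CESA1 and CESA3 lay side by side at the top, with CESA1 at 139 ± 6.52 CPM per kb in scl28-3 and 135 ± 20.8 in wild type, and CESA3 at 129 ± 4.19 in scl28-3 and 134 ± 28.7 in wild type. COB came next, at 123 ± 2.99 CPM per kb in scl28-3 and 126 ± 3.90 CPM per kb in wild type. The ranges of neighbours among these 3 genes overlapped in both genotypes. Within libraries, CESA1 was above CESA3 and CESA3 above COB in 3 of 3 scl28-3 libraries. In wild type this held in 2 of 3 libraries for CESA1 over CESA3 and in 1 of 3 for CESA3 over COB. Per kb of coding sequence COB came first, at 208 in scl28-3 and 213 in wild type, and CESA1 second, so the order of the 3 genes was not resolved. CESA6 followed at 92.8 ± 0.474 CPM per kb in scl28-3 and 91.2 ± 18.9 CPM per kb in wild type (SD, n = 3 for each level).

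Below CESA6 the levels stepped down. CESA2 was at 29.3 ± 1.93 CPM per kb in scl28-3 and 24.2 ± 1.35 CPM per kb in wild type, and CESA6 exceeded it 3.17-fold in scl28-3 and 3.76-fold in wild type. CESA5 was at 12.3 ± 0.774 CPM per kb in scl28-3 and 12.9 ± 3.82 CPM per kb in wild type, 3.08-fold above the next gene, CESA7, in scl28-3 and 3.78-fold above it in wild type. The secondary wall genes were close together. CESA7 was at 3.99 ± 0.541 CPM per kb in scl28-3 and 3.41 ± 0.176 CPM per kb in wild type, CESA4 at 3.38 ± 0.438 in scl28-3 and 2.69 ± 0.567 in wild type, and CESA8 at 2.08 ± 0.254 in scl28-3 and 2.06 ± 0.379 in wild type. CESA7 and CESA4 overlapped in both genotypes, while CESA4 and CESA8 overlapped in wild type and not in scl28-3. CESA9 was the lowest, at 0.119 ± 0.0529 CPM per kb in scl28-3 and 0.143 ± 0.0469 CPM per kb in wild type. The order of the 10 means was the same in both genotypes.

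**Figure D3:**
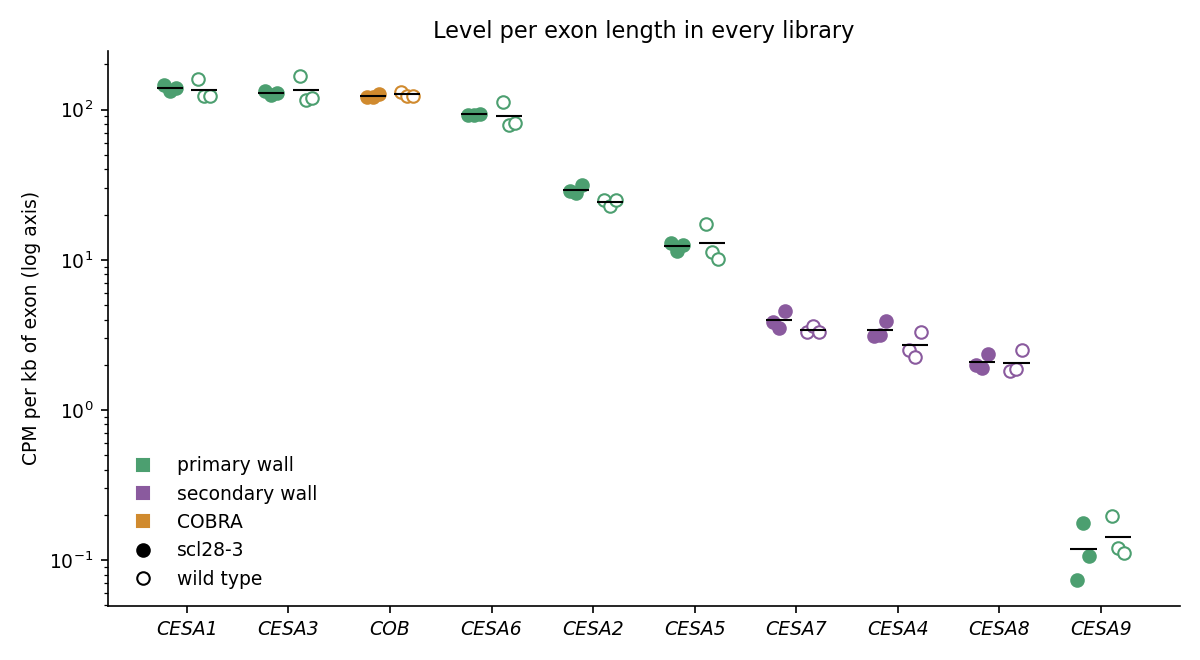
Level per exon length (vertical axis, CPM per kb of exon, log axis) of the 10 genes, ordered by the wild-type mean. Points are libraries, filled for scl28-3 and open for wild type, colours mark the wall type, and lines are genotype means. CESA1, CESA3 and COB lie between 116 and 167 CPM per kb, the secondary wall genes between 1.81 and 4.59, and CESA9 below 0.2.

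Summed per wall type, secondary wall subunits made up a small part of the synthase transcripts. The 3 secondary wall genes summed to 8.93, 8.58 and 10.8 CPM per kb in scl28-3 and to 7.61, 7.73 and 9.15 CPM per kb in wild type. The 6 primary wall genes summed to 413, 389 and 407 CPM per kb in scl28-3 and to 482, 353 and 359.9 CPM per kb in wild type. The secondary sum was therefore 2.16%, 2.20% and 2.67% of the primary sum in scl28-3 and 1.58%, 2.19% and 2.54% in wild type, with means of 2.35% ± 0.279 in scl28-3 and 2.103% ± 0.488 in wild type (SD, n = 3 each). The genotypes overlapped, and wild-type library 1, with the lowest percentage, had both the highest primary sum and the lowest secondary sum of the 6 libraries. Over 8 xylem markers the summed level was 54.6, 61.0 and 82.1 CPM in scl28-3 and 45.4, 60.3 and 72.1 CPM in wild type. Library 3 was thus the highest in each genotype for this sum as for the secondary sum. XCP1 and XCP2 made up most of it, at 35.9 and 30.4 of 82.1 CPM in scl28-3 library 3. XCP1, XCP2, VND7, MYB83 and BFN1 were each highest in library 3 of both genotypes. MYB46 and VND6 were highest in library 2 of wild type, and MC9 in library 2 of scl28-3. Of the 8, VND6 was at 0 in 3 libraries, and 0 of 7 tested were called. The part of these markers in the CESA levels was not tested.

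Within the primary wall set, the abundant genes kept similar shares over the libraries, and the share of CESA2 varied more relative to its size. CESA1, CESA3 and CESA6 together gave 89.9%, 89.9% and 89.2% of the primary sum in scl28-3 and 91.2%, 90.3% and 90.2% in wild type. The CESA6-related genes summed to 0.919, 0.994 and 0.985 times the CESA1 level in scl28-3 and to 0.974, 0.911 and 0.951 times in wild type, all per kb of exon. CESA3 was at 0.911, 0.938 and 0.931 times CESA1 in scl28-3 and at 1.05, 0.935 and 0.974 times in wild type. CESA2 gave 6.95%, 7.11% and 7.73% of the primary sum in scl28-3 and 5.20%, 6.43% and 6.92% in wild type and did not overlap between genotypes, as its CPM did not. The smallest gap was narrow, at 6.95% in scl28-3 library 1 against 6.92% in wild-type library 3.

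**Figure D4:**
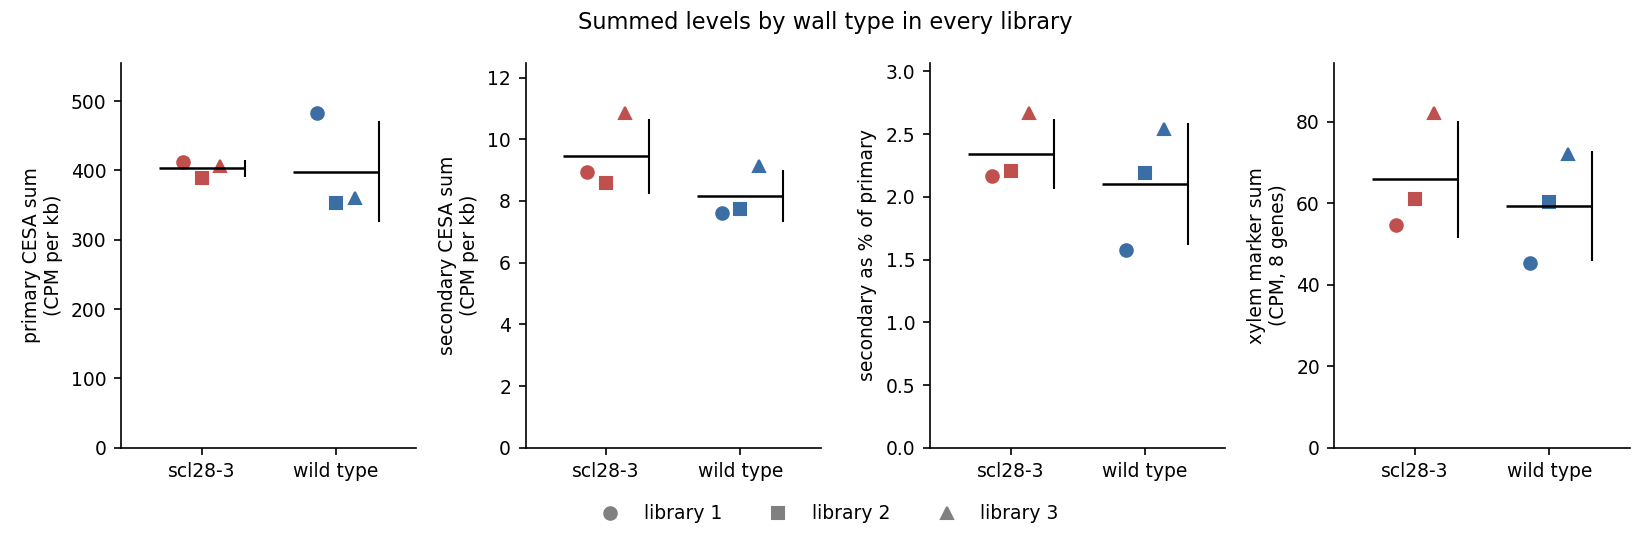
Summed levels in each library (points, marker shape by library number), with genotype means (horizontal lines) and 1 SD (vertical lines), all axes from 0. Panels show the primary and secondary wall CESA sums in CPM per kb of exon, the secondary sum as a percentage of the primary sum, and the sum of 8 xylem markers in CPM. The secondary percentage runs from 2.16 to 2.67 in scl28-3 and from 1.58 to 2.54 in wild type.

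CESA1, CESA3, CESA5 and CESA6 were each highest in wild-type library 1, while CESA2 and the secondary wall genes were not. Relative to its mean over 6 libraries, on log2(CPM + 0.5), wild-type library 1 deviated by 0.23 for CESA1, 0.37 for CESA3, 0.32 for CESA6 and 0.49 for CESA5, against -0.07 for CESA2 and 0.08 for COB. It was at -0.23 for CESA4, -0.14 for CESA7 and -0.16 for CESA8. In CPM, wild-type library 1 was 1.29 times the mean of the other two wild-type libraries for CESA1, 1.42 times for CESA3, 1.40 times for CESA6 and 1.61 times for CESA5. For COB that ratio was 1.05 and for CESA2 1.06.

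The same library was also low in endodermis markers and had the highest meristem marker sum. The 8 endodermis genes summed to 297, 298 and 447 CPM in scl28-3 and to 147, 282 and 375 CPM in wild type. The 4 meristem genes summed to 104, 103 and 98.3 CPM in scl28-3 and to 121, 96.2 and 88.7 CPM in wild type, so wild-type library 1 was at one end of both. SCR made up most of the meristem sum, at 78.4 of 121 CPM in wild-type library 1. PLT1, PLT2 and SCR were each highest in that library, while WOX5 was at 0.60 CPM there (7 reads). For PLT1 and PLT2 the margin was small. PLT1 was at 24.4 CPM there against 22.5 CPM in scl28-3 library 1, and PLT2 at 17.6 against 17.2 CPM. The high meristem sum of wild-type library 1 therefore rested mainly on SCR. In wild-type libraries 2 and 3 WOX5 was at 0.96 and 0.79 CPM. All 8 endodermis genes had a log2 difference above 0, with a median of 0.45 against 0.01 over all tested genes. MYB36, an endodermis transcription factor, was the one of the 8 that did not overlap between genotypes, at an unadjusted p = 0.046 and a limma adjusted p = 0.995. Such a pattern held for 6.19% of all tested genes in this direction and 10.4% in either, so 1 of 8 is a share near the background. Of the 4 meristem genes, 1 was above 0 and 3 below, with a median of -0.06. None of the 8 endodermis or 4 meristem genes was called, and no marker of either list was at 0 in a genotype mean. Their part in the CESA differences was not tested.

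Between pairs of CESA1, CESA3, CESA5 and CESA6, Pearson's r over the 6 libraries was 0.92 to 0.96 and Spearman's rho 0.66 to 1.00, and r was 0.69 to 0.98 over the 5 libraries without wild-type library 1. These 4 genes were grouped after their values were seen. CESA2, the other tested primary wall gene, had r of 0.05 to 0.28 with them, and 0.62 to 0.90 without wild-type library 1. The 3 secondary wall genes had r of 0.24 to 0.71 and rho of 0.14 to 0.66, and r of 0.06 to 0.63 without that library. These are descriptions over libraries that share depth and composition. CESA4, CESA7 and CESA8 rested on 65 to 262 reads a library, against 476 to 9873 reads for the primary wall genes other than CESA9.

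**Figure D5:**
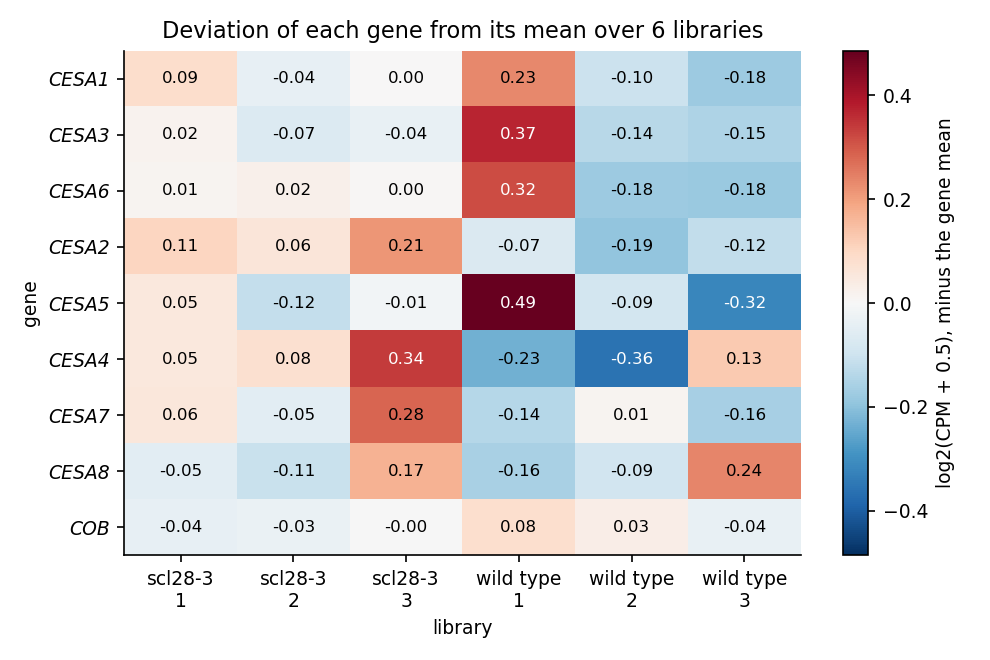
Deviation of each tested gene (rows) from its own mean over 6 libraries in each library (columns), in log2(CPM + 0.5) after TMM scaling, with red above and blue below the mean. Wild-type library 1 is the highest column for CESA1, CESA3, CESA5 and CESA6, at 0.23 to 0.49, and scl28-3 library 3 is the highest for CESA2, CESA4 and CESA7, at 0.21 to 0.34.

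Among 14027 other genes with a mean of at least 5 CPM, those most like the mean of CESA1, CESA3 and CESA6 over the 6 libraries were CYP707A1, which encodes an abscisic acid 8′-hydroxylase, and AT5G61300, AT5G38690, AT3G61690 and AT1G70770, with r of 0.993 to 0.999. With 6 libraries such values are common, and 655 genes had an r of at least 0.9. Those most like the mean of CESA4, CESA7 and CESA8 were BIM3, AT3G57470, MRH2, PDIL2-3 and AT1G75620, with r of 0.983 to 0.987, and 245 genes had an r of at least 0.9. BIM3 is a basic helix-loop-helix factor of brassinosteroid signalling, MRH2 an armadillo-repeat kinesin of root hairs and PDIL2-3 a protein disulfide isomerase.

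Genes that work with the synthases gave no calls either. Of 19 accessory genes kept, 18 were tested and 0 were called. Of the 18, 0 had a limma unadjusted p under 0.05, 10 were above 0 and 8 below. The median log2 difference was 0.00, against 0.01 over all tested genes. CC1, CC2, STL1, STL2, SHOU4, SHOU4L and PATROL1 were left out of this list because the reference does not give those names. CTL1, a chitinase-like protein that affects cellulose assembly, was at 336 ± 24.7 CPM in scl28-3 and 338 ± 25.8 CPM in wild type. KOR1, the membrane endoglucanase of the complex, was at 281 ± 11.9 CPM in scl28-3 and 277 ± 10.2 CPM in wild type. Only KLCR1, also called CMU1, which holds cortical microtubules in place as synthases push along them, did not overlap between genotypes, and it was named after its values were seen. That is 1 of 18 tested genes, against 6.19% of all tested genes in this direction and 10.4% in either, so it is a share near the background. KLCR1 was at 196 ± 5.78 CPM in scl28-3 and 182 ± 7.76 CPM in wild type, a log2 difference of 0.09 with a limma adjusted p = 0.995.

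The relatives of COB and of the synthases gave no calls. Of 10 COBRA-like genes, 7 were listed, 6 were tested and 0 were called, with a median log2 difference of 0.03. COBL5 was at 66.2 ± 6.55 CPM in scl28-3 and 66.5 ± 4.02 CPM in wild type. COBL9, which is needed for root hair growth, was at 56.5 ± 4.04 CPM in scl28-3 and 50.6 ± 3.30 CPM in wild type. COBL4, which acts in secondary walls beside CESA4, CESA7 and CESA8 and was named after its values were seen, was at 2.97 ± 1.103 CPM in scl28-3 and 2.38 ± 0.658 CPM in wild type.

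Of the 31 cellulose synthase-like genes and CESA10, 21 were listed, 19 were tested and 0 were called, with 11 above 0, 8 below and a median of 0.02 (log2). CSLD3, which makes wall glucans at the tips of root hairs, was at 199 ± 14.8 CPM in scl28-3 and 199 ± 38.6 CPM in wild type. CSLD2 was at 133 ± 3.07 CPM in scl28-3 and 131 ± 16.1 CPM in wild type. CESA10, the remaining CESA gene, was at 0.71, 0.14 and 0.42 CPM in scl28-3 and at 0.60, 0.58 and 0.44 CPM in wild type and was not tested.

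Of 26 secondary wall and xylem genes, 24 were listed, 22 were tested and 0 were called, with 14 above 0, 8 below and a median of 0.07 (log2). The 26 include the 8 xylem markers summed above, so the 2 lists are not separate. IRX14, a glycosyltransferase of xylan synthesis, was at 46.1 ± 1.93 CPM in scl28-3 and 49.8 ± 7.39 CPM in wild type. XCP1, a xylem cysteine protease, was at 28.9 ± 6.07 CPM in scl28-3 and 27.1 ± 5.76 CPM in wild type. None of the 22 had an unadjusted p under 0.05.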

How the data were processed

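The submitters' processing notes name the TAIR10 genome, edgeR, HTSeq 0.6.1p1 and HISAT2 2.0.0, with the annotation release and strand setting not given. Per the file headers, the authors deposited CPM. Whole reads were recovered for 100% of values within 0.1 read, and edgeR's quasi-likelihood test on them called 14 genes, against 13 in limma.

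CPM was divided by TMM factors (edgeR 4.0.16) and tested as log2(CPM + 0.5) with limma 3.58.1 (intensity trend, R 4.3.3), two-sided, over genes kept by filterByExpr with a minimum count of 10. Fold changes on this scale understate those of low genes. The steps were tested on simulated counts, drawn for each gene on its own with no shift shared by a library. That test cannot tell how the steps handle a library that stands apart, such as wild-type library 1. Exon lengths, coordinates and sequences came from TAIR10.1, whose nuclear gene IDs matched 21020 of 21125 listed genes, and 7 list entries whose names it does not give were left out.

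The members and lists were chosen with earlier results of these data known. Genes were named by rule: all members, SCL28, of each list up to 4 called genes and the 2 most abundant uncalled ones, and the 5 genes most like each wall type. Further list and marker genes were named outside this rule. Among these, MYB36, KLCR1 and COBL4 were named after their values were seen. Alternatives covered the test, scaling, filter, pseudocount, a replicate block, gene length and leaving out each library. P-values measure the spread between pools of tips.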

Additional observations from a re-analysis of the deposited data

How the results depend on the processing

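No member was called under any of the 18 alternatives to the fit, which included edgeR's quasi-likelihood test, DESeq2 1.42.0, limma-voom, other scalings, filters and pseudocounts. CESA2, CESA4 and CESA7 stayed above 0 and COB below 0 in each of them. CESA8, at 0.01 (log2), was at -0.0029 with DESeq2 and -0.0028 with upper-quartile factors. When a library was left out, the log2 difference ran from -0.050 to 0.15 for CESA1, -0.15 to 0.11 for CESA3, -0.23 to 0.17 for CESA5, -0.059 to 0.18 for CESA6 and -0.082 to 0.13 for CESA8; such fits have fewer samples, and the cause was not otherwise tested. Of all genes, 13 were called lower and 0 higher, and leaving out a library gave 5 to 18 lower and 0 higher. A fit with the title numbers as a replicate block called 40 lower and 24 higher, with 0 members and 0 genes of the 4 pathway lists among them. Those numbers share no stated source, so they were not taken as pairs. Libraries with the same number had deviations that correlated at 0.44, 0.04 and 0.50, and whether the numbers mark a shared batch was not tested. The secondary sum as a percentage of the primary sum averaged 2.103 in scl28-3 and 1.89 in wild type with coding length, and 2.62 in scl28-3 and 2.32 in wild type against CESA1, CESA3 and CESA6 alone. Without wild-type library 1 that percentage, per exon length, averaged 2.37 in wild type against 2.35 in scl28-3, which turned its direction. CESA9 rests on 10 reads or fewer a library, which limits any statement on it.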
